A study of Mus musculus with 6 samples.

Results

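The AP-1 genes encode leucine zipper transcription factors that bind DNA as dimers, and 10 of them were examined: Fos, Fosb, Fosl1, Fosl2, Jun, Junb, Jund, Atf3, Batf and Batf3. The members were chosen by name. Their windows, each gene body plus 20 kb on either side, held 67 of the 66679 accessible regions obtained by merging the reproducible peak lists of the 2 genotypes. The windows were defined by position, and their regions are those that passed peak calling in at least 1 genotype. The promoters of Jun, Atf3, Fosl2 and Jund had the best mean ranks of the family by peak p, and no accessible region was found at the start of Batf. None of the 67 regions differed between genotypes beyond the threshold used, which only 0.0675% of all 66679 regions passed.

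Accessibility was measured by ATAC-seq, in which the Tn5 transposase inserts adapters into open chromatin. The cells were primary smooth muscle cells from the oviducts of mice aged 8 to 12 weeks on day 2 of pregnancy. They were dissociated with trypsin, collagenase and dispase, plated, given new medium after 4 h and harvested 2 h later. The WT group and the Pbrm1 cKO group had 3 libraries each. By the study's methods the controls were Pbrm1 fl/fl littermates, so both groups carried the floxed alleles. In Pbrm1 cKO mice, Cre driven from the progesterone receptor locus deletes them wherever that receptor is expressed, so deletion is not restricted to muscle. Pbrm1 encodes the bromodomain protein BAF180, which belongs to the PBAF form of the nucleosome remodeler SWI/SNF. The labels do not say whether each library came from a separate mouse, so p-values below measure the spread between these libraries.

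FOS proteins cannot pair with one another and bind DNA only with a JUN partner, whereas JUN proteins also pair among themselves. The usual target is the AP-1 site TGACTCA, and dimers with ATF members can prefer the related cyclic AMP response element TGACGTCA. Fos, Fosb, Jun, Junb and Atf3 are immediate-early genes, transcribed within minutes of a stimulus by factors that already sit at their promoters. Among these is serum response factor, which binds the CArG box, a motif also found at many smooth muscle contractile genes.

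The upstream sequences of 5 members are shown because they hold the motifs that tell these promoters apart, or, for Batf, because no accessible region was found there. Each run covers positions -330 to -31 from the transcription start of the first protein-coding transcript in GENCODE M21, 5′ to 3′ on the gene's strand of GRCm38. Capitals mark a CArG box in Fos and Fosb, TGACATCA in Jun and TGACGTCA in Jund. None of these motifs, nor TGACTCA, occurs in the Batf run.

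Fos (chr12:85473560-85473859, plus strand): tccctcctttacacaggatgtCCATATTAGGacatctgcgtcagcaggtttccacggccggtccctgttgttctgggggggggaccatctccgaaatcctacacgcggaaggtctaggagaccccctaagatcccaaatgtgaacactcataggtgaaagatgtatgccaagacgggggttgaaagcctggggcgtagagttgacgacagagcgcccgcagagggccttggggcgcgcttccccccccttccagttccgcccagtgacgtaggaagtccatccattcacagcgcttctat
Fosb (chr7:19310082-19310381, minus strand): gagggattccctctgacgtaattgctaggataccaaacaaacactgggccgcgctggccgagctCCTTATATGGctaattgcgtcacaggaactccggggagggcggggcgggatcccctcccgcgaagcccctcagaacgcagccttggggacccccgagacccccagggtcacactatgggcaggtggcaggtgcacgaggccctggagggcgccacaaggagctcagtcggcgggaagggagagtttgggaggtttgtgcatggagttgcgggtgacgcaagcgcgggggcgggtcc
Jun (chr4:95052253-95052552, minus strand): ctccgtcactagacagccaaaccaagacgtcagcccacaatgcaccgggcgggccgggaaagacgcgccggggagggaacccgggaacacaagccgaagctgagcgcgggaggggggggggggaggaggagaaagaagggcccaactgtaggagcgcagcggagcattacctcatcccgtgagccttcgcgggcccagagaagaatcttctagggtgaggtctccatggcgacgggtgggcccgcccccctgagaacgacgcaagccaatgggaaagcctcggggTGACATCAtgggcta
Jund (chr8:70698619-70698918, plus strand): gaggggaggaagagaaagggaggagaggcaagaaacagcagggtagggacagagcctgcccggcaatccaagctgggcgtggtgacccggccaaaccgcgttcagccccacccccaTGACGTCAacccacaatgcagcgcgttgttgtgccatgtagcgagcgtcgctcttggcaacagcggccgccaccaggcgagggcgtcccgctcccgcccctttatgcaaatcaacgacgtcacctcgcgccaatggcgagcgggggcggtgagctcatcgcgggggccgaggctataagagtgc
Batf (chr12:85686339-85686638, plus strand): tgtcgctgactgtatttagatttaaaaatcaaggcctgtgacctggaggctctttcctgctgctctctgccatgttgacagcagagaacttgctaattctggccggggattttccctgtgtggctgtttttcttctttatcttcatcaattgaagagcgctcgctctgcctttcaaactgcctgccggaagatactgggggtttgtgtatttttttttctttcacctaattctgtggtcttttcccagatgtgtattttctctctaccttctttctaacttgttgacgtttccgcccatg

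Motifs were counted on both strands. A CArG box was present in this window in 2 of the 10 members, Fos at -309 and Fosb at -266, and in 1.49% of the 93462 protein-coding transcription starts. TGACGTCA was found in Jund at -214 alone, against 1.52% of all starts. TGACATCA, a variant added to the search after the data had been seen, occurred in Jun at -45 alone, against 2.12% of all starts. TGACG, which overlaps TGACGTCA and was also added afterwards, was held by 7 members and by 20.2% of starts. The remaining promoter motifs were the CCAAT box in 5 members against 35.9% of starts and GGGCGG in 8 against 35.3%. TATAAA was found in 1, Fosl1 at -132, against 12.6%. The window ends at -31, so a motif nearer the start was not counted. Within 300 bp centred on the summit, TATAAA on either strand occurred in 4 of the 18 accessible regions at members' own starts. This was 22.2%, against 6.45% of all promoter regions, and the regions were at Fos, Fosb and Junb. TGACTCA was found upstream of none of the members and in 4.50% of all starts. Many starts belong to the same gene, so these shares describe windows and not independent genes.

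Within each library the 66679 regions were ranked by the best −log10 p of the peaks over them, rank 1 being the strongest. The rank score used for tests is log2(66679 / rank), so that a score higher by 1 means a rank number smaller by a factor of 2. The single-library lists held 298563 to 300000 entries, and total read numbers are unknown here. Tags over each summit were recovered as the whole number that, with the deposited fold, best gave back the deposited −log10 p, and at all 397 peaks over window regions the recomputed −log10 p lay within a relative error of 0.0005. Promoter regions were found for 5 of 6 smooth muscle markers at mean ranks of 19388 to 46897, with Myocd the exception, and for 1 of 7 epithelial markers, Foxj1, whose mean rank of 4389 was ahead of every smooth muscle marker. Of 3 immune markers, Cd68 (mean rank 22592) and Csf1r (39080) had a promoter region and Ptprc, the pan-leukocyte marker, had none. Promoter regions were also found for all 3 fibroblast and all 3 endothelial markers, at mean ranks of 21012 to 47707, so these peaks do not show that muscle was the only cell type.

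Of the JUN genes, Jun and Jund had promoters among the stronger of these cells. The promoter of Jun, the cellular counterpart of the viral oncogene v-jun, ranked 2548, 1305 and 2009 in WT libraries 1, 2 and 3, and 3329, 2414 and 4979 in Pbrm1 cKO libraries 1, 2 and 3, over 102 to 174 tags. WT library 1 lay behind Pbrm1 cKO library 2, so the genotypes overlapped, and the score differed by -0.86 (SE 0.49, adjusted p = 0.406). Ranked by fold the difference was -0.54. This region (chr4:95051408-95053002) also spans the start of Junos, a noncoding gene transcribed away from Jun.

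The promoter of Jund, the member with the steadiest expression in most cells, ranked 5159, 3972 and 2374 in WT and 3286, 3316 and 4273 in Pbrm1 cKO libraries. The Pbrm1 cKO ranks lay inside the WT range, and the score differed by 0.02 (SE 0.44, adjusted p = 0.989). In Pbrm1 cKO library 1 a single peak spanned this region and its neighbour on the upstream side, so both took their rank from it.

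Junb, which often opposes Jun, had 3 promoter regions. The best ranked by mean rank lay 2.1 kb downstream, at the start of a noncoding transcript of the gene, with 11256, 15756 and 7442 in WT and 6965, 7184 and 10116 in Pbrm1 cKO libraries. Its score differed by 0.46 (SE 0.38, adjusted p = 0.592), and the ranges overlapped. The region at the protein-coding start ranked 16682, 9124 and 11744 in WT and 23763, 17891 and 16622 in Pbrm1 cKO libraries. There the difference had the other sign, -0.66 (SE 0.35, adjusted p = 0.363), and WT library 1 stood behind Pbrm1 cKO library 3 by a narrow margin, 16682 against 16622. By fold the difference at this start was -0.36 (adjusted p = 0.309).

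In the FOS family, Fosl2 (FRA2) had the best-ranked promoter, with 3490, 2609 and 6036 in WT and 3386, 3971 and 1825 in Pbrm1 cKO libraries. The genotypes overlapped (difference 0.39, SE 0.48, adjusted p = 0.747), and the difference was 0.05 without WT library 3 or without Pbrm1 cKO library 3. Its promoter region held a TGACTCA near the summit, on one or the other strand. Outside it, the Fosl2 window contained only 2 weaker regions, both at the start of the neighbouring Gm10463, and no distal region.

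The Fos promoter, a standard reporter of recent stimulation, ranked 13486, 7362 and 6401 in WT and 8102, 11773 and 5236 in Pbrm1 cKO libraries, a difference of 0.12 (SE 0.41, adjusted p = 0.925). Neither genotype stood apart. The CArG box shown above lies in the small adjoining region, chr12:85473465-85473669, whose score differed by 0.08 (SE 0.42). One peak covered both regions in Pbrm1 cKO library 3, which gave the best rank of the 6 libraries at each.

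Of the 4 FOS genes, Fosb had the promoter with the narrowest range of ranks. Its region ranked 10180, 11663 and 10626 in WT and 10131, 8746 and 9644 in Pbrm1 cKO libraries. All 3 Pbrm1 cKO ranks were ahead of all 3 WT ranks by a narrow margin, and the score differed by only 0.19 (SE 0.34, adjusted p = 0.839). The promoter of Fosl1 (FRA1) was weaker, at 19091, 21186 and 16115 in WT and 35322, 20748 and 20418 in Pbrm1 cKO libraries (difference -0.40, SE 0.34, adjusted p = 0.603). Pbrm1 cKO library 1 was the low value, and the other two overlapped WT. Without it the difference was -0.14.

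The 3 ATF and BATF members differed most from one another. Atf3, a stress-induced gene, had a promoter ranked 1558, 5711 and 4496 in WT and 411, 2037 and 2498 in Pbrm1 cKO libraries, over 71 to 190 tags. The Pbrm1 cKO libraries were ahead on average, but WT library 1 stood before Pbrm1 cKO libraries 2 and 3. The difference of 1.42 (SE 0.67) was the largest of any member promoter and did not pass the adjustment (unadjusted p = 0.0484, adjusted p = 0.311). It ranged from 0.60 (without Pbrm1 cKO library 1) to 1.99 when single libraries were left out, and with peaks ranked by fold it was 0.30 (adjusted p = 0.797).

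Batf3, known for its role in dendritic cells, had a weak promoter region that was in the WT list only. It ranked 56150, 53750 and 27486 in WT and 56190, 61742 and 57476 in Pbrm1 cKO libraries, over 14 to 18 tags. The groups did not overlap in rank, by a narrow margin (56150 against 56190, difference -0.42, SE 0.22, adjusted p = 0.369). WT library 3 was far ahead of all others in rank but not in tags. It had 18 tags at rank 27486, and Pbrm1 cKO library 1 had 18 tags at rank 56190. Without WT library 3 the difference was -0.09. A region that entered through the WT list alone favours better WT ranks.

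Batf, a factor of lymphoid cells, had no merged region within 1 kb of its start. The single-library lists held 3, 2 and 3 intervals there in WT and 1 in each Pbrm1 cKO library. The best of them stood at positions 96373, 97236 and 74169 among the 202310, 209436 and 241237 intervals of the WT lists, over 8 to 10 tags. In the Pbrm1 cKO lists they stood at 147028, 129522 and 121570 among 201228, 204316 and 205436, over 7 or 8 tags. Every WT library was ahead of every Pbrm1 cKO library in list position, at counts too low for a firm statement.

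**Figure D1:**
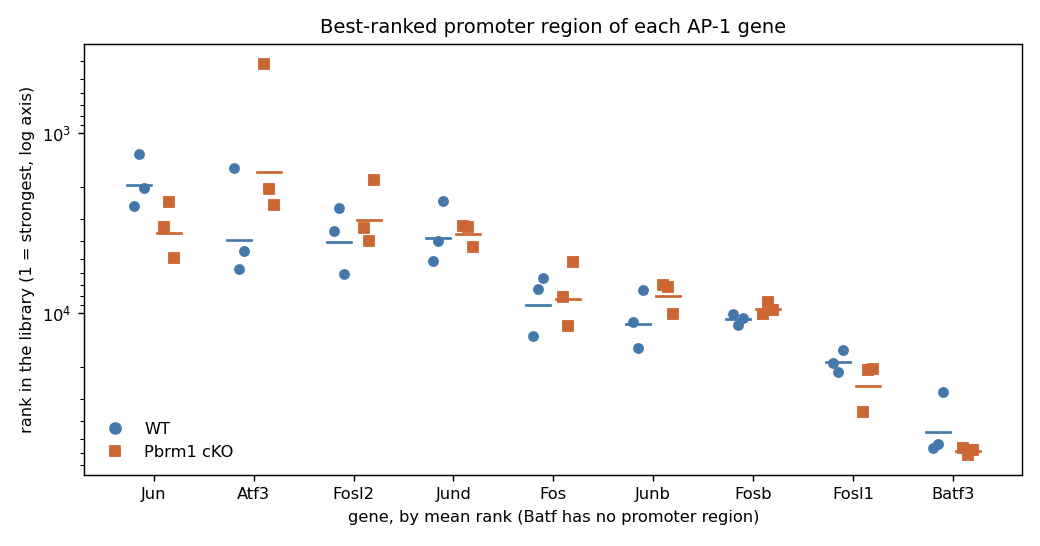
Rank of the best-ranked promoter region of 9 AP-1 genes in each of 3 WT (circles) and 3 Pbrm1 cKO (squares) libraries, on a log axis with the strongest rank at the top and a line at each mean. Jun, Atf3, Fosl2 and Jund have the best mean ranks, Batf3 lies at the bottom, and the Junb region is the one 2.1 kb inside the gene.

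Taken by mean rank over the 6 libraries, the order was Jun (2764), Atf3 (2785), Fosl2 (3553), Jund (3730), Fos (8727), Junb (9786), Fosb (10165), Fosl1 (22147) and Batf3 (52132). Among all 21555 merged promoter regions, 10.7% had a better mean rank than that of Jun and 90.5% a better one than that of Batf3. The first 4 promoters overlapped in their ranks and were not in a fixed order between libraries. Jund and Fos did not overlap, the worst rank of Jund being 5159 and the best of Fos 5236, and both Fosb and Fosl1 also lay apart, at 11663 and 16115. Atf3 and Fosl2, with worst ranks of 5711 and 6036, overlapped Fos, although both were ahead of it within every library. Fos, Junb and Fosb overlapped. So did Fosl1 and Batf3, although Fosl1 was ahead of Batf3 in 6 of 6 libraries. The order rests on ranking by p. With peaks ranked by fold enrichment the mean rank was 28986 for Jun and 16556 for Atf3, and 8 of the 9 promoters moved back by more than their spread.

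No region of the 67 passed the threshold of 0.05 for an adjusted p in limma, in either direction, and 0.0675% of all regions did so. At an unadjusted p under 0.05 there were 5 higher in Pbrm1 cKO (7.46%, against 7.51% of all regions) and 4 lower (5.97%, against 8.37%). The median difference was 0.05 in the windows and 0.00 over all regions. Of the 67, 8 regions had all Pbrm1 cKO ranks ahead of all WT ranks (11.9%, against 10.6% of all regions), and 5 had all behind (7.46%, against 10.9%). The AP-1 windows therefore held about as many separated regions as their number would give at the background share. Of the 18 regions at the members' own starts, 1 was separated upward, at Fosb, and 1 downward, at Batf3 (5.56% each, against 6.63% and 10.3% of all promoter regions).

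**Figure D2:**
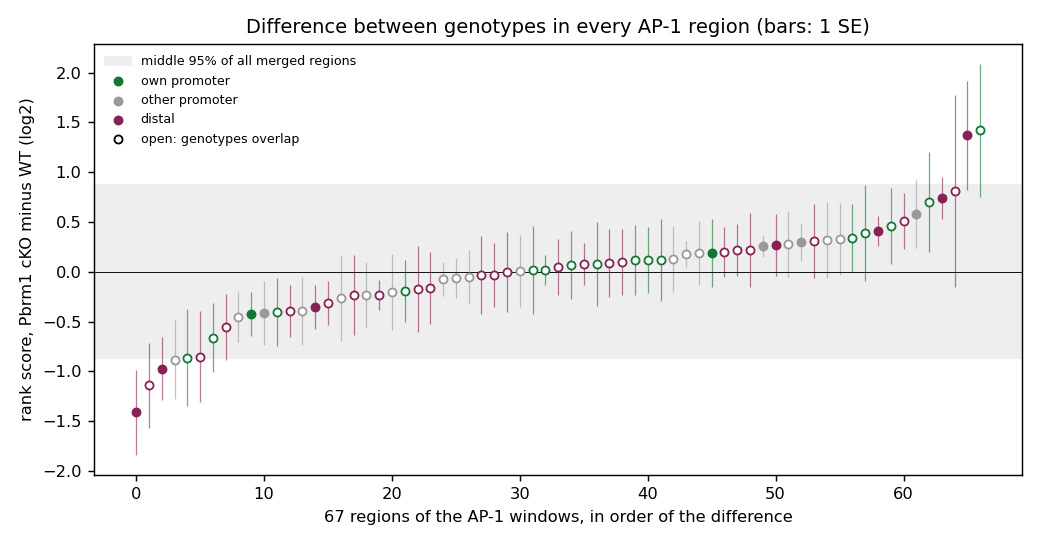
Rank score in Pbrm1 cKO minus WT for each of the 67 regions, in order of size, with bars of 1 SE from limma. Filled points are regions whose genotypes do not overlap, and the grey band from -0.86 to 0.87 holds the middle 95% of all 66679 regions. Most AP-1 regions lie inside the band, and the points furthest outside are at Batf and Atf3.

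Around Batf both regions of the window, each in an intron, ranked worse on average in Pbrm1 cKO. The stronger, chr12:85705131-85706211, had its summit 19.0 kb into the gene. It ranked 2822, 6766 and 8666 in WT and 17124, 10482 and 17204 in Pbrm1 cKO libraries, over 36 to 94 tags. All WT libraries were ahead of all Pbrm1 cKO libraries. The difference of -1.41 (SE 0.43) had an unadjusted p of 0.00388 and an adjusted p of 0.134, and ranged from -1.74 to -0.93, the latter without WT library 1, when single libraries were left out. The other region, 11.7 kb into the gene, ranked 14639, 9182 and 17341 in WT and 54129, 34000 and 13696 in Pbrm1 cKO libraries. Pbrm1 cKO library 3 fell among the WT values there (difference -1.14, SE 0.43, adjusted p = 0.210, and -0.70 without Pbrm1 cKO library 1). The single-library lists held 13, 11 and 11 intervals in the Batf window in WT and 9, 9 and 7 in Pbrm1 cKO. With the weak peaks at its start, all 4 measures at Batf were lower in Pbrm1 cKO on average. They share libraries and in part peaks, and no test was made over them.

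Atf3 showed differences of both signs within 1 locus. While its promoter ranked better on average in Pbrm1 cKO, the region 10.7 kb upstream, chr1:191193666-191194122, ranked 19986, 14061 and 12694 in WT and 28366, 33369 and 28416 in Pbrm1 cKO libraries. That region lies in an intron of the long isoform, and the genotypes did not overlap (difference -0.97, SE 0.32, unadjusted p = 0.00759, adjusted p = 0.160). The best-ranked distal region, 33.0 kb upstream of the main start and close to that of the long isoform, ranked 5902, 5832 and 8815 in WT and 7848, 8847 and 4351 in Pbrm1 cKO. No separation was seen there, the difference being 0.00 (SE 0.40).

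Fos was flanked by strong intergenic regions on each side. The one 18.4 kb upstream, chr12:85454925-85455812, ranked 4648, 2913 and 2477 in WT and 1980, 1516 and 646 in Pbrm1 cKO libraries, over 72 to 155 tags. All 3 Pbrm1 cKO libraries were ahead (difference 1.37, SE 0.55, unadjusted p = 0.0223, adjusted p = 0.234). The size depended on the ranking, the difference being 0.64 by fold (adjusted p = 0.638), and it was 0.90 without Pbrm1 cKO library 3. The region 12.1 kb downstream ranked 2024, 4066 and 2158 in WT and 4086, 3802 and 6764 in Pbrm1 cKO libraries. Its difference pointed the other way, -0.85 (SE 0.46, adjusted p = 0.372), with overlap. The upstream region ranked ahead of the Fos promoter in 6 of 6 libraries and the downstream region in 5.

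Fosb and Junb had distal regions with better ranks in Pbrm1 cKO that were weak in WT. Their mean Pbrm1 cKO ranks were 37218 at Fosb and 47040 at Junb, beside a median mean rank of 40366 over all distal regions. The Fosb region, chr7:19303894-19304082, lies in the 3′ untranslated part of the last exon and was in the Pbrm1 cKO list only. It ranked 53107, 65802 and 65147 in WT, where WT library 3 had no peak, and 35514, 46422 and 29719 in Pbrm1 cKO libraries. The difference of 0.74 (SE 0.21) had the smallest unadjusted p of the windows, 0.00229, and an adjusted p of 0.117. It passed at an adjusted p of 0.0485 when normal scores replaced the log2 ranks. With peaks ranked by fold it was 0.06 (adjusted p = 0.739). Under normal scores 2 window regions passed, with 2.33% of all regions. The second, within 1 kb of a start of the neighbouring Fibp in the Fosl1 window, ranked 66325, 66344 and 65147 in WT and 58140, 49744 and 57624 in Pbrm1 cKO, and had an adjusted p of 0.244 on the log2 scale and 0.0269 with normal scores. No WT library had a peak there, so the WT ranks are the shared last ranks. The Junb region, in an exon of Rnaseh2a 18.6 kb downstream, ranked 61327, 64415 and 59996 in WT and 38114, 52963 and 50044 in Pbrm1 cKO (difference 0.41, SE 0.15, adjusted p = 0.207, and 0.27 without Pbrm1 cKO library 1). All 3 regions entered the merged set through the Pbrm1 cKO list alone, which favours a better rank in Pbrm1 cKO, so their differences and p-values are not independent of that selection.

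The remaining region named for its p was at another Fibp start in the Fosl1 window, with 36940, 32160 and 11824 in WT and 50389, 58606 and 29686 in Pbrm1 cKO (difference -0.88, SE 0.40, adjusted p = 0.295). The difference was -0.37 without WT library 3 and -0.56 by fold. WT library 3 ranked 11824 over 42 tags, whereas WT library 1 ranked 36940 over 41 tags. Best-ranked distal regions of the other members were spread widely in strength. Their mean ranks over the 6 libraries were 5956 at Jund, 7249 at Fosb, 11309 at Fosl1, 21556 at Junb, 24680 at Batf3 and 39971 at Jun, whose single distal region lay 19.4 kb downstream in an intron of a neighbouring gene.

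**Figure D3:**
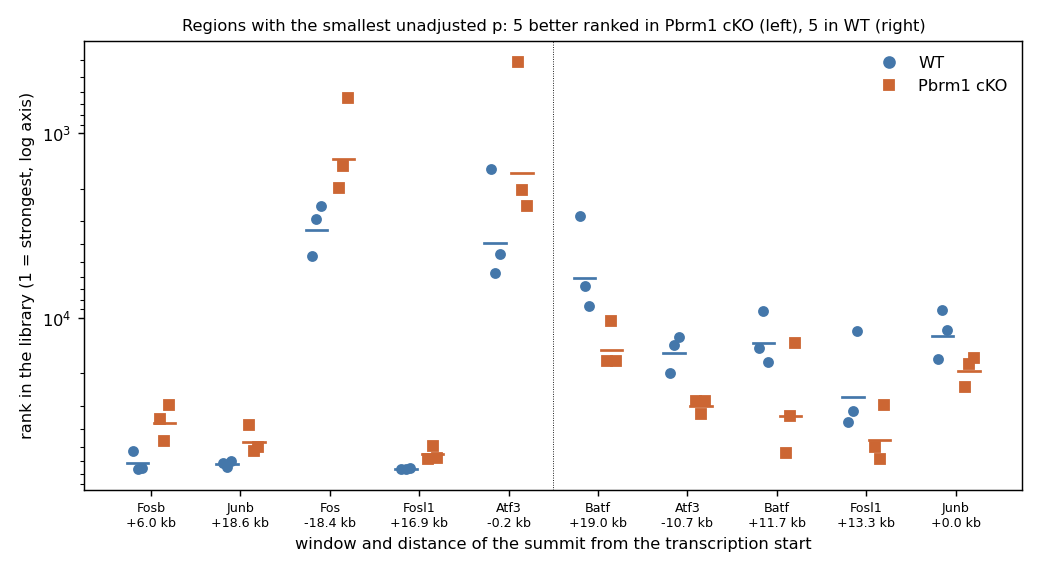
Ranks in the 6 libraries of the 10 window regions with the smallest unadjusted p, 5 in each direction, on a log axis with the strongest rank at the top and a line at each group mean. The Fos -18.4 kb, Batf +19.0 kb and Atf3 -10.7 kb regions have separate genotypes. Their mean ranks over the 6 libraries are better than those of the separated Fosb, Junb and Fosl1 regions on the left, whose WT ranks lie near the bottom.

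The sequences of 5 distal summits are shown, the first pair because these regions had the largest differences among distal regions, and the others because they hold an AP-1 site. Each run is 200 bases centred on the summit, 5′ to 3′ on the plus strand of GRCm38, with TGACTCA or its reverse complement TGAGTCA, and TGACATCA or its reverse complement TGATGTCA, in capitals.

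Fos -18.4 kb (chr12:85455365-85455564, plus strand): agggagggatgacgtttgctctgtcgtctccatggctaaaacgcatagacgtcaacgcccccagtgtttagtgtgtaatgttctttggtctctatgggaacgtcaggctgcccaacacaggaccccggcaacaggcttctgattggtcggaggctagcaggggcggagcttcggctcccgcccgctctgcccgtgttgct
Batf +19.0 kb (chr12:85705603-85705802, plus strand): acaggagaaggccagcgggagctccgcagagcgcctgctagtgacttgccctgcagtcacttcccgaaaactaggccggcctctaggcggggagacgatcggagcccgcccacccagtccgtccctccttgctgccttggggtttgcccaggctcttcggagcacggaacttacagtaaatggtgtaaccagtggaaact
Fosb -6.9 kb (chr7:19316883-19317082, plus strand): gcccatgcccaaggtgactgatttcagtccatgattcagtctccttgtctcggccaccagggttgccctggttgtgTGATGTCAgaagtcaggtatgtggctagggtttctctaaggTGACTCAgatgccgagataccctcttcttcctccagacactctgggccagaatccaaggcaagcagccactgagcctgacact
Junb -7.1 kb (chr8:84985723-84985922, plus strand): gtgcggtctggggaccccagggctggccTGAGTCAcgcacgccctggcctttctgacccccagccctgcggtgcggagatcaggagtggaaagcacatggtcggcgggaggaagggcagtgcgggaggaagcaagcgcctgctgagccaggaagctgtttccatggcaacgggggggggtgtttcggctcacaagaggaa
Atf3 -33.0 kb (chr1:191216231-191216430, plus strand): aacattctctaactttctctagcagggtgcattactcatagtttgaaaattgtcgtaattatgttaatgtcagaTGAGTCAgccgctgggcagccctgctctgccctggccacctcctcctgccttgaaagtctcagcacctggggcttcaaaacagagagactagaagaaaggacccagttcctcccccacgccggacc

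Neither region with a large difference held TGACTCA or TGACATCA. Within 300 bp centred on the summit, TGACTCA on either strand occurred in 8 of the 29 distal AP-1 regions (27.6%, Wilson 95% interval 14.7 to 45.7%) and in 38.4% of all 45124 distal regions. The 8 were in the windows of Fosb, Fosl1, Junb, Jund, Atf3 and Batf3, and none of the 7 distal Fos regions or the 2 Batf regions had one. The Junb region at -7.1 kb held 2 sites, 1 of which falls in the run printed. At the members' own starts 3 of 18 regions had the site (16.7%, interval 5.84 to 39.2%), both Fosl1 regions and that of Fosl2, against 11.9% of all promoter regions. For this site, neither the share of the 29 nor that of the 18 regions can be told from the general one at this number.

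Over the whole series the site was found in 40.8% of distal regions in both genotypes' lists (interval 40.2 to 41.3%), in 32.7% of those in the WT list only (31.6 to 33.8%) and in 35.5% of those in the Pbrm1 cKO list only (34.6 to 36.5%). The intervals cover counting error, and regions are not independent replicates. The median of the mean rank was 30366, 52669 and 53067 in these classes, and the part of peak strength in the shares was not tested.

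**Figure D4:**
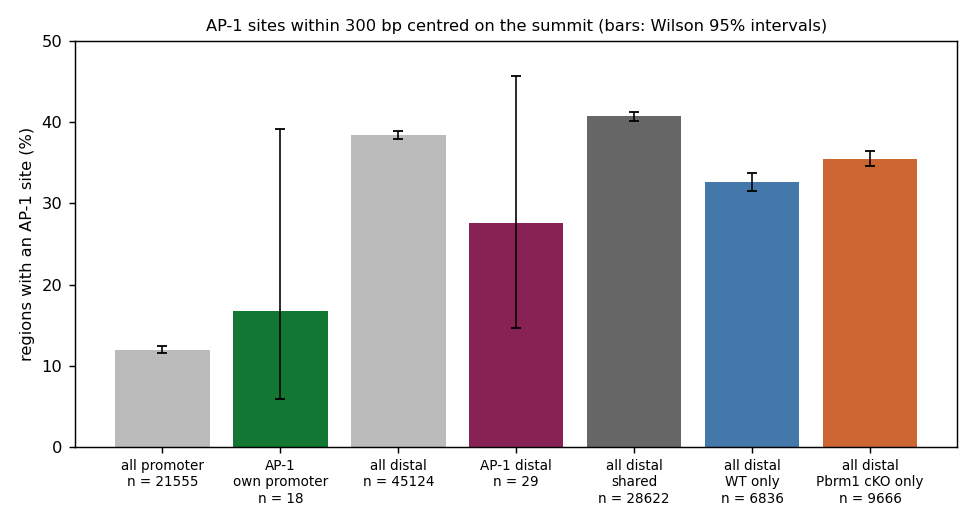
Share of regions with an AP-1 site, TGACTCA on either strand, in 300 bp centred on the summit, with Wilson 95% intervals. The intervals of the 18 AP-1 promoter and 29 AP-1 distal regions include the shares of all promoter (11.9%) and all distal (38.4%) regions, and distal regions in both lists exceed those in a single list.

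By place, 18 of the 67 regions lay within 1 kb of a member's own start, 20 at the start of another gene and 29 further away. Both genotypes' lists held 56 of them. There were 6 in the WT list only (8.96%, against 13.4% of all regions) and 5 in the Pbrm1 cKO list only (7.46%, against 17.4%). Each list was made from pooled reads, so membership has no replicate error. Of the 6 WT-only regions 4 were at Fos, 1 at Atf3 and 1 at Batf3, and of the 5 Pbrm1 cKO-only regions 2 were in the Fosl1 window and 1 each at Fosb, Junb and Atf3. The best ranked of the first class were Fos -17.9 kb (mean rank 30310), Atf3 -40.8 kb (43406) and Fos +14.0 kb (46573). The rank of Fos -17.9 kb was borrowed in WT library 1 and Pbrm1 cKO library 2 from the strong peak beside it. Of the second class the best were Atf3 -38.9 kb (43197), Fosb +6.0 kb (49285) and Junb +18.6 kb (54477). Only the latter pair had separate genotypes among these 6.

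**Figure D5:**
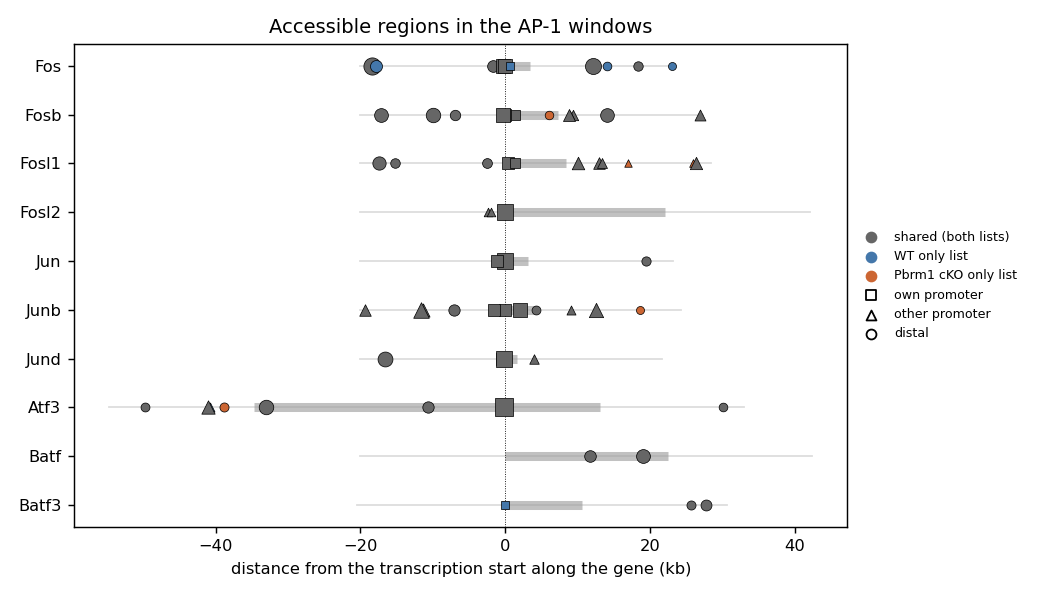
Position of the 67 regions along each window, in kb from the transcription start in the direction of the gene, with gene bodies as grey bars. Marker size follows the mean rank score, shape shows own promoter, other promoter or distal, and colour shows the list. Strong distal regions flank Fos, Batf has regions only inside the gene, and the 11 regions called in 1 genotype are mostly small.

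Windows differed in how many regions they held, from 12 at Fosb, 11 at Fosl1 and 11 at Junb, which lie among other genes, to 3 each at Fosl2, Jun and Batf3 and 2 at Batf. The lists of single libraries held 176, 165 and 160 distinct intervals in the windows in WT and 162, 166 and 168 in Pbrm1 cKO libraries. The genotypes overlapped. WT library 3, whose list had the most distinct intervals and whose median of 17.0 tags per window interval was the lowest, had the fewest per 10000 of its list, 6.63, against 7.88 to 8.70 in the other libraries. Between 69 and 89 intervals per library lay outside every merged region, the best of them at position 29063.

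A further 65 genes around AP-1, listed with earlier results known, were read in the same fit at their best-ranked promoter region, which 63 had. The exceptions were the target genes Mmp13 and Spp1. None of the 63 passed the threshold in either direction (0.0464% of all promoter regions did), and at an unadjusted p under 0.05 there was 1 higher (1.59%, against 4.45% of all promoter regions) and 2 lower (3.17%, against 7.92%). The genotypes did not overlap at 1 as higher (1.59%, against 6.63%) and at 5 as lower (7.94%, against 10.3%). The median difference was 0.04.

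Among the kinases that lead to AP-1, Map3k1, the upstream kinase MEKK1, ranked 41062, 47502 and 34144 in WT and 63363, 61070 and 55820 in Pbrm1 cKO libraries, with the genotypes separate (difference -0.57, SE 0.18, adjusted p = 0.149). Mapk3 (ERK1) ranked 12808, 12420 and 11340 in WT and 14802, 18838 and 28294 in Pbrm1 cKO, without overlap (difference -0.71, SE 0.34, adjusted p = 0.320). A further 7 kinases had differences of -0.38 to 0.97.

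Among the inhibitors, the promoter of Dusp6, a MAP kinase phosphatase, had the smallest p of the 65 genes. It ranked 3494, 8055 and 7938 in WT and 2277, 2706 and 1907 in Pbrm1 cKO libraries. All Pbrm1 cKO libraries were ahead (difference 1.42, SE 0.45, unadjusted p = 0.00576, adjusted p = 0.149). Of the other leucine zipper genes, Jdp2, which lies between Fos and Batf and encodes a repressor partner of JUN, ranked 38120, 41204 and 36978 in WT and 21641, 22353 and 37357 in Pbrm1 cKO (difference 0.56, SE 0.31, adjusted p = 0.397). Klf2, an immediate-early gene, ranked 6482, 3942 and 4818 in WT and 2001, 5272 and 2730 in Pbrm1 cKO (difference 0.70, SE 0.46, adjusted p = 0.481). The genotypes overlapped at both.

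The 16 other immediate-early genes all had a promoter region, at a median mean rank of 8845, and their median difference was -0.01. For the 8 factors that act at these promoters, serum response factor and CREB among them, the median difference was 0.05 and the smallest adjusted p 0.655. The 11 target genes with a promoter region had a median difference of 0.00, and 2 of them, Plau (difference -0.57, adjusted p = 0.442) and Mmp3 (-0.46, adjusted p = 0.509), ranked lower in every Pbrm1 cKO library than in any WT library. Such separation was seen at 10.3% of all promoter regions.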

How the data were processed

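ATAC-seq peak lists of 6 mouse libraries, 3 WT and 3 Pbrm1 cKO by their labels, were read as deposited. Per the labels, the authors used cutadapt, Bowtie2 and MACS2 on GRCm38.p5. They deposited 1 relaxed list per library, limited to 300000 entries, and 1 conservative list per genotype, made on pooled reads and filtered by irreproducible discovery rate. Each entry carries the authors' fold (a ratio of summit to local background), −log10 p and rescaled score.

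The conservative lists were merged where they shared at least 1 bp. Regions without a peak in a library shared the mean of the last ranks. The model, in limma 3.58.1 under R 4.3.3 with a trended eBayes step, took log2(66679 / rank) over all regions, with Benjamini-Hochberg adjustment and a threshold of 0.05, and was tested on simulated data. Ranks replaced the read counts of the study's own test, which peak lists do not hold, and hide any change that moves a whole library. Genes came from GENCODE M21 and sequences from RefSeq's GRCm38.p6. All 10 members were named with their best-ranked promoter and distal regions, besides the 5 window regions of smallest p in each direction, the 3 best-ranked of each 1-genotype class and the 3 pathway promoters of smallest p in each direction, of which 1 is not reported here. The members, gene lists and tests were chosen with earlier results of these data known. Alternatives changed the score, ranking, filter, window, promoter distance, overlap and motif width, or left out 1 library.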

Additional observations from a re-analysis of the deposited data

How the results depend on the processing

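With normal scores 2 of the 67 window regions were past the threshold as higher in Pbrm1 cKO, in place of 0. Of all regions, 2.33% were past it in either direction with normal scores, and 0.0675% with the log2 ranks. Both window regions had entered through the Pbrm1 cKO list alone, which favours a better rank there. Under every other setting tried, 0 window regions and 0 pathway promoters were past the threshold. Shares of all regions under those other settings are not given. Ranking by fold turned the difference to -0.17 at the promoter of Fos, -0.09 at Fosb, -0.11 at Fosl2, -0.10 at Junb and -0.28 at Jund, none of them past the threshold in either ranking. The mean rank became 31183 at Fos, 35746 at Fosb, 38160 at Fosl1, 28566 at Fosl2, 28986 at Jun, 45635 at Junb, 25760 at Jund and 16556 at Atf3. Leaving out single libraries moved the promoter difference of Fos between -0.21 and 0.40 and that of Jund between -0.23 and 0.33, and among these Fos was -0.18 without Pbrm1 cKO replicate 3 and Jund -0.04 in 3 settings. Regions whose genotypes did not overlap numbered 8 higher (11.9%, against 10.6% of all regions) and 5 lower (7.46%, against 10.9%). They became 4 and 9 by fold and 4 and 3 in the upper part of regions. With 1 library left out they were 9 to 12 higher and 5 to 11 lower, where 3 libraries face 2 and separation is easier. The share of all regions so separated is given for the first setting alone. The other counts of separated regions have no background to be read against. Without WT replicate 1 the numbers were 12 and 8, without WT replicate 2 they were 9 and 11, without WT replicate 3 they were 12 and 7, without Pbrm1 cKO replicate 2 they were 9 and 10, and without Pbrm1 cKO replicate 3 they were 11 and 9. Windows of 50 kb held 128 regions, with 14 in the WT list only and 10 in the Pbrm1 cKO list only, and windows of 10 kb held 3 of each. Intervals per library differed by -1.67 (Pbrm1 cKO minus WT) and by 5.00 with all entries counted. Where not stated, the cause was not tested. Of 351 values under alternatives, 315 kept their direction and side of the threshold or, where untested, stayed within their spread or within 1.5 times a count. Sizes of tested differences could still move by more, to 0.30 at the Atf3 promoter and 0.06 at Fosb +6.0 kb by fold.

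Libraries with the same number in both genotypes did not deviate together (correlations of -0.00289, -0.0549 and 0.00906), so the numbers were not taken as pairs. With the replicate number as a block, 0 window regions and 0 pathway promoters were past the threshold, and the difference was -1.41 at Batf +19.0 kb (adjusted p = 0.102) and 1.42 at the Atf3 promoter (adjusted p = 0.207). Depth is known only as tags per summit, which were 14 to 18 at the Batf3 promoter and 102 to 174 at that of Jun.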
